A study of Mus musculus with 2 samples.

Results

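The genes that encode the proteins of the cytoplasmic ribosome were followed in the Mbnl2 HITS-CLIP tags of mouse quadriceps muscle. Members were the protein-coding genes of the mm9 GENCODE vM1 annotation whose symbol begins with Rpl or Rps and a digit, with Rplp or with Rpsa, leaving out the Rps6k kinases. The rule gave 140 of 22380 protein-coding genes. Of these, 48 encode large subunit proteins, 33 encode small subunit proteins and 3 encode the stalk proteins Rplp0, Rplp1 and Rplp2. Another 55 carry a -ps symbol, the mark of a gene copy, although the annotation lists them as protein-coding, and Rps19bp1 entered by its symbol alone, since its name is that of a binding partner of a ribosomal protein.

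In HITS-CLIP, UV light fixes a protein to RNA that lies against it, RNase A shortens the RNA, an antibody pulls out the protein, and the short RNA pieces that come along are sequenced and called tags. Quadriceps came from wild-type (WT) mice and from *Mbnl1*-/- (*Mbnl1* KO) mice of 15 to 16 weeks, 3 of each genotype, and Mbnl2 was purified with the antibody 3B4 after digestion at 38.6 or 0.0386 U/ml RNase A. Both genotypes carry intact *Mbnl2*. The knockout allele is a constitutive deletion named for *Mbnl1* exon 3, the labels give the strain as C57BL/6, and the study's methods name a mixed background for the compound knockouts. The 3 mice of a genotype are merged in 1 table, so no spread between mice and no test between genotypes can be had, and every interval below covers counting error in these 2 tables only.

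The WT table held 343554 unique tags, and 476543 were in that of *Mbnl1* KO muscle. A ratio is the *Mbnl1* KO tags per 1000000 divided by the WT tags per 1000000, with an exact Clopper-Pearson 95% interval. Tags whose reference sequence is at least 70% of a single base made up 44.0% of WT and 17.0% of *Mbnl1* KO tags on assembled chromosomes, which enters the scale of each ratio. Among the tags on members they were 3 in WT and 5 in *Mbnl1* KO. The muscle transcripts Ckm (32 WT and 142 KO tags), Acta1 (72 and 193) and Myh4 (116 and 367) were tagged in both tables. *Mbnl1* itself had 100 WT and 452 KO tags over its body, a count that does not check the deletion because the deleted bases were not at hand.

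A ribosome joins a small subunit, which reads the mRNA, with a large subunit, which forms the peptide bond, and the stalk on the large subunit recruits the elongation factors. The mRNAs of ribosomal proteins are short and abundant and start with a terminal oligopyrimidine (TOP) tract, through which growth signals set their translation. Many of the genes carry small nucleolar RNAs (snoRNAs) in their introns, which guide the modification of ribosomal RNA and are cut out of the host transcript. Processed copies of these mRNAs, most of them pseudogenes, are scattered over the genome. Mbnl2 is a zinc finger protein of the muscleblind-like family that regulates splicing, and these proteins favour RNA with the word YGCY, in which Y is C or T (U in RNA).

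The sites below carried groups of overlapping exonic tags at some of the members described here, and show what a tag site in a member's annotated exons looked like. Each is the reference sequence of mm9 on the gene's strand, 5′ to 3′, of up to 30 bases, with each YGCY word in capitals, that is C or T, then GC, then C or T, as in TGCT, counted on the printed strand and allowed to overlap.
Rpl15, 3′ UTR, chr14:19101292-19101313, minus strand: agtgtttgTGCCaagtggtgtt
Rpl15, 3′ UTR, chr14:19100519-19100548, minus strand: attgtccccgaacagctggcttggtctcaa
Rpl8, coding sequence, chr15:76734979-76735008, plus strand: atgaccctggccgcggCGCTcccctCGCCa
Rplp1, coding sequence, chr9:61762209-61762235, minus strand: atggcttccgtctccgagctCGCTtgc
Rpl24, 3′ UTR, chr16:56007839-56007867, plus strand: aaTGCTttagagctatgattcttgactct
Rpl28, 5′ UTR, chr7:4744850-4744879, plus strand: acccagcCGCCtgtccacggccTGCTtctt
Rplp2, 3′ UTR, chr7:148637202-148637231, plus strand: gattaaattccTGCTcccctgcaaataaag
Rplp2-ps1, 3′ UTR, chr12:76731934-76731963, minus strand: gattaaattccTGCTcccctgcaaataaag

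The tags per site were few, given here as WT and then KO. The first Rpl15 window held 2 WT tags and 1 *Mbnl1* KO tag and the second 0 and 3. The Rpl8 window held 0 and 4 and the Rpl24 window 0 and 5. The Rplp1 window held the most, with 3 WT and 6 KO tags. The windows of Rplp2 (0 WT and 4 KO tags) and of Rplp2-ps1 (1 and 5) are the same 30 bases, which occur 3 times in mm9, so their tags cannot be told apart by sequence. The other windows printed above occur once.

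The snoRNAs inside the genes gave a second kind of site. The windows with most tags on 6 of them follow, with the letters of the C box (TGATGA) and of the D box (CTGA), the conserved words of box C/D snoRNAs, in capitals.
Snord83b in Rpl3, chr15:79908933-79908957, minus strand: attccctgttgccttccttCTGAga
SNORD36 in Rpl7a, chr2:26768369-26768398, plus strand: tgccagtgatgcttaggaatttcttcacct
SNORD101 in Rps12, chr10:23506313-23506342, minus strand: TGATGActtgaattgtcggataccccttca
Snord100 in Rps12, chr10:23505598-23505627, minus strand: tgtacaTGATGAaaacagtctccctcttct
Snord33 in Rpl13a, chr7:52382292-52382314, minus strand: gcttgTGATGAgacatctcccac
Snord4a in Rpl23a, chr11:77995200-77995229, minus strand: aaagtCTGAtaaagatgattgtgatctatt

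Ribosomal protein genes carried few Mbnl2 tags. All 140 members together had 94 WT and 288 *Mbnl1* KO tags over their bodies, which is 273.6 and 604.4 per 1000000, a ratio of 2.21 (1.74 to 2.82), beside 1.61 (1.599 to 1.62) over the bodies of other protein-coding genes. The quotient of these ratios was 1.37 (exact interval 1.08 to 1.75), and it was 1.10 (0.869 to 1.42) when single-base tags were dropped, which was added after the values were seen. The members' own ratio was 1.24 (0.909 to 1.70) at 2 reads or more. Without single-base tags as well it was 1.06 (0.776 to 1.46), and both intervals include 1. A body tag was found on 87 of the 140 members, 65 of the 85 without a -ps symbol and 22 of the 55 copies, while 71.6% of all protein-coding genes had one. Bodies of the 85 genes are short, with a median of 3243 nt beside 15420.5 nt over all protein-coding genes, and these counts are not adjusted for length. Of the members, 2 reached 20 tags (Rpl13a and Rpl15), a number that 17.4% of protein-coding genes reached, and 11 reached 10. Without copies, 20 members were listed at 0 in both tables, among them Rpl6, Rpl30, Rpl32, Rps10 and Rps29. A gene at 0 may still lie at up to 8.73 tags per 1000000 in WT and 6.30 in *Mbnl1* KO muscle, the levels of 3 tags. In CLIP, more of an RNA and more binding per RNA both give more tags and cannot be told apart.

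Over merged exons, which set aside the length of introns, members were tagged about as densely as other genes. The 140 members had 227 exonic tags, or 1.26 per kb, and the other 22240 protein-coding genes had 102147, or 1.32 per kb. By region the densities differed. Members without a -ps symbol had 2.20 per kb in coding sequence, beside 0.712 in other genes, and 2.05 beside 2.81 in 3′ UTRs. Exon parts between the coding parts, with 0.138 per kb in members, made up 33.9% of their exon length and 15.7% in other genes. The 227 tags were 49 in WT and 178 in *Mbnl1* KO, a ratio of 2.62 (1.90 to 3.67), beside 2.80 (2.76 to 2.84) at the other genes. The quotient of these ratios, which needs no scale, was 0.936 (exact interval 0.678 to 1.31), so the members' exons did not differ detectably from those of other genes, within a factor given by that interval. Members without a -ps symbol had 44 and 147 exonic tags and a quotient of 0.861 (0.611 to 1.23).

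Within the gene bodies the exonic tags stood beside tags of other kinds. In the 85 genes, 191 body tags lay in exons, 94 on annotated small RNAs, which is 27.2% of the body tags, and 61 in introns. Intronic tags numbered 21 in WT and 40 in *Mbnl1* KO muscle (ratio 1.37, 0.791 to 2.45). The exon and intron ratios did not differ beyond counting error, with a quotient of 1.75 (0.884 to 3.41). On the opposite strand there were 27 WT and 27 KO tags (ratio 0.721, 0.407 to 1.28), of which 18 and 14 were mostly a single base.

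**Figure D1:**
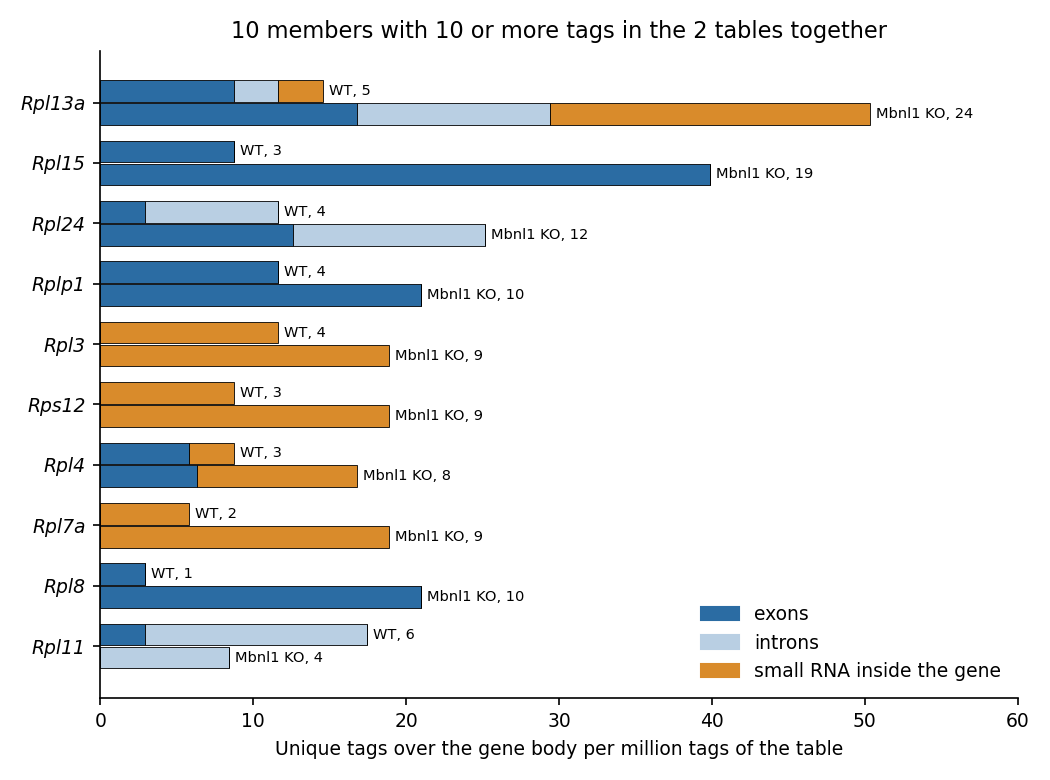
Unique tags per 1000000 over the bodies of 10 of the 11 members with 10 or more tags, 1 bar per merged table with its tag number, divided by place in the gene. Rpl13a and Rpl15 have the longest KO bars, and Rpl3, Rps12 and Rpl7a consist of small RNA tags only. Rpl11 is the 1 gene with more WT than KO tags per 1000000, and 5 of its 10 tags are mostly a single base. Of the 29 Rpl13a tags, 13 lie over Flt3l.

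Among large subunit genes, Rpl15, which encodes a protein of the large subunit core, had the most exonic tags. Its tags numbered 3 in WT (8.73 tags per 1000000) and 19 in *Mbnl1* KO muscle (39.9), a ratio of 4.57 (1.34 to 24.1), and all 22 lay in its 3′ UTR. The interval included 1 with each 5′ end counted once (2.91, 0.768 to 16.2), without single-base tags (3.12, 0.917 to 16.4) and at 2 reads or more (2.61, 0.600 to 23.7). Of them 19 match mm9 at a single place. The KO tags were spread over the 3′ UTR rather than stacked at the sites that the WT tags marked, as the printed windows with 2 and 0 WT tags show. Rpl8, a core protein near the peptidyl transferase centre, had 1 WT and 10 KO tags (7.21, 1.03 to 313), 10 of the 11 in coding sequence, and each matched mm9 once. This rests on 1 WT tag, and the interval included 1 with each 5′ end counted once (4.76, 0.577 to 219), without single-base tags and at 2 reads or more (2.61, 0.336 to 117.8).

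Rpl13a had the most tags of any member, 5 in WT and 24 in *Mbnl1* KO (ratio 3.46, 1.29 to 11.6), but most of these lay over Flt3l or on snoRNAs. An annotated Rpl13a transcript runs through Flt3l, a cytokine gene, and 13 of the 29 tags, 2 WT and 11 KO, lay over Flt3l. Another 11 lay on the snoRNAs Snord33 (1 WT and 4 KO), Snord34 (0 and 3), Snord35a (0 and 2) and Snord32a (0 and 1) of its introns. Without the tags over Flt3l, a choice made after the values were seen, 3 WT and 13 KO tags remained (3.12, 0.858 to 17.1).

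The remaining large subunit genes with 10 tags had intervals that include 1. Rpl24 had 4 WT and 12 KO tags over a body of 55966388 to 56009026 on chromosome 16, 9 of them intronic. That annotated body is far longer than the median of 3243 nt for the 85 genes. Of its 7 exonic tags, 5 lay in the 3′ UTR near its far end, at the printed window. Whether these tags belong to the ribosomal protein mRNA was not tested. Rpl4 had 3 and 8, of which 1 and 5 lay on small RNAs. Rpl11, which also binds the p53 regulator Mdm2, had 6 WT and 4 KO tags (ratio 0.481, 0.0998 to 2.03), 9 of the 10 intronic. Of these 10 tags 5 were mostly a single base, and the ratio without them was not computed.

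The median was 2 body tags a gene for the large and for the small subunit and 4 for the 3 stalk genes. Rplp1 had 4 and 10 (1.80, 0.520 to 7.87), all coding, Rplp2 had 0 and 4 and Rplp0 had 1 and 0. Rpsa, a small subunit protein also known as a laminin receptor, had 1 and 5. Rps20 had 0 WT and 7 KO tags, 4 of them on its snoRNA.

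Of the 11 members with 10 or more tags, 7 had a ratio of at least 2, while 39.3% of protein-coding genes with as many tags did. A ratio of at most 0.5 was found for 1 of the 11 (Rpl11, with 5 of its 10 tags mostly a single base), against 6.49% of such genes. The interval lay wholly above 1 for 3 of the 11 (Rpl13a, Rpl15 and Rpl8), near the 27.7% of such genes. All 3 intervals included 1 without single-base tags, with lower limits of 0.883, 0.917 and 0.6999, and with each 5′ end counted once, with lower limits of 0.624, 0.768 and 0.577. The median ratio of the 11 was 2.16, beside 1.68 over all protein-coding genes with 10 tags. At a minimum of 20 tags, 2 of 2 members reached a ratio of 2, where 41.6% of genes did. With 11 and 2 genes, these shares carry little weight.

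Pooled exons gave a ratio of 1.99 (1.29 to 3.16) for the large subunit, from 29 WT and 80 KO tags, and of 3.82 (1.92 to 8.42) for the small subunit, from 10 and 53. The subunits did not differ detectably, with a quotient of 1.92 (0.822 to 4.78). The 3 stalk genes had 5 and 14 exonic tags (2.02, 0.687 to 7.16). Exonic tags were concentrated in a few genes: 6 of the 85 held 78 of the 191 tags, or 40.8%. Leaving Rpl15 and Rpl8 out of all members changed the exonic ratio to 2.39 (1.70 to 3.41).

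**Figure D2:**
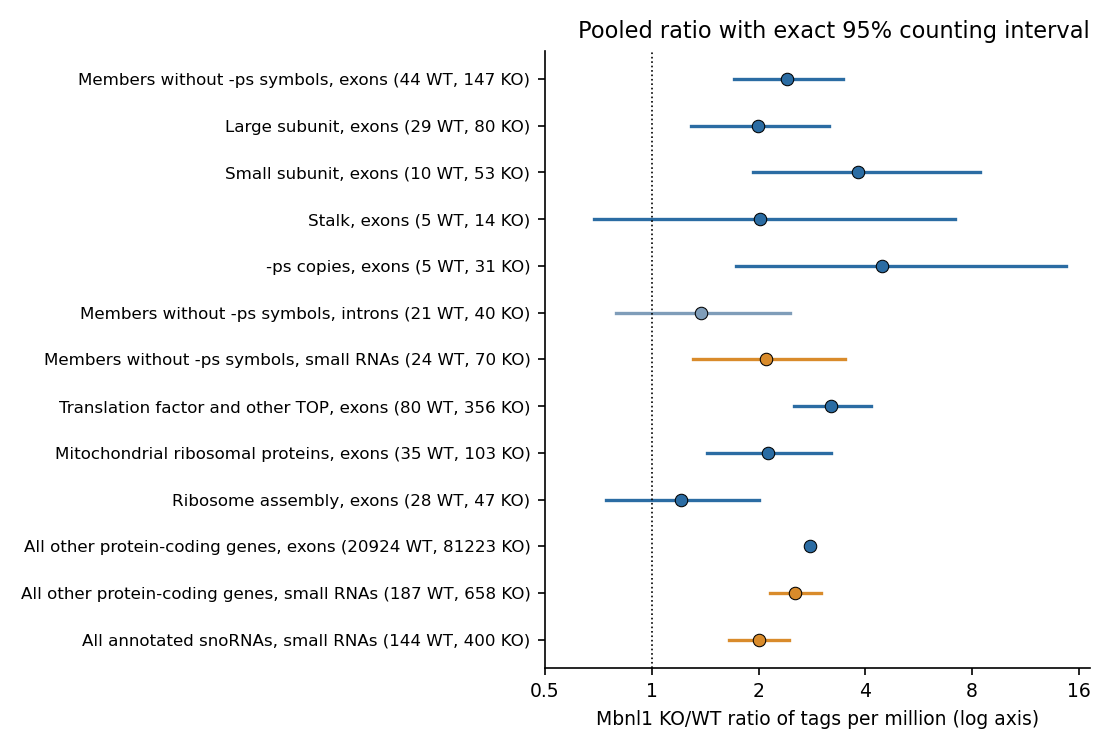
*Mbnl1* KO/WT ratio of tags per 1000000 on a log axis, with exact 95% counting intervals as lines and the tag numbers in the labels, for members by subunit and place (blue exons, pale blue introns, orange small RNAs) and for comparison sets. The intervals of both subunits overlap, and that of members without -ps symbols includes the value of all other protein-coding exons, 2.80.

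Paralogue pairs carried at most 7 tags a gene outside snoRNAs. Rpl3l, the striated muscle paralogue of Rpl3, had 2 WT and 5 KO tags, 1 and 3 of them exonic, whereas Rpl3 had 0 exonic tags in both tables. Words of 25 bases from Rpl3 exons were unique in mm9 in 8.12% of positions, and the part of this in its lack of exonic tags was not tested. Rpl22 had 4 and 1 tags and Rpl22l1 had 0. Rpl7 had 0 and 1 and Rpl7l1 had 2 and 3. Rpl10 had 2 and 2, with 1 of its WT tags on a snoRNA, and Rpl10l, a testis paralogue, had 0. The tags of Rpl36a (2 and 0), Rpl39 (2 and 3, with 1 KO tag on a snoRNA) and Rps27 (1 and 4) stood beside 0 at Rpl36al, 0 at Rpl39l and 0 and 2 at Rps27l. The difference within a pair was not tested.

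The exonic tags lay in coding sequence more often than those of other genes. Of the 191 exonic tags of members without a -ps symbol, 108 or 56.5% (49.2 to 63.7) were coding, 62 or 32.5% (25.9 to 39.6) lay in 3′ UTRs and 14 or 7.33% (4.07 to 11.99) in 5′ UTRs. The other protein-coding genes had 24.9%, 65.9% and 1.97%. Per kb of the region, coding sequence had 2.20 tags in members and 0.712 in other genes, 3′ UTRs had 2.05 and 2.81, and 5′ UTRs 0.709 and 0.346. The remaining 7 tags lay in exons of other transcripts between the coding parts, such as retained introns, which make up 33.9% of the merged exon length of members. Leaving out Rpl15, whose tags were all in the 3′ UTR, raised the coding share to 63.9% (56.2 to 71.1). With each position counted once it was 57.5% (48.6 to 66.0). The *Mbnl1* KO/WT ratio was 2.52 (1.59 to 4.15) in coding sequence and 2.72 (1.45 to 5.46) in 3′ UTRs, a quotient of 0.929 (0.396 to 2.10).

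**Figure D3:**
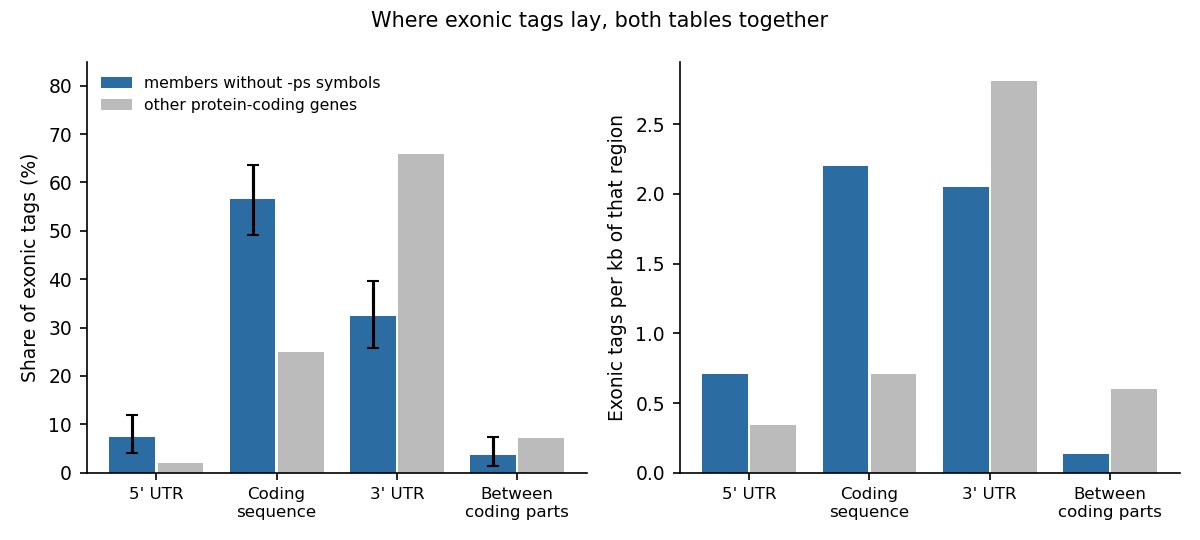
Share of exonic tags by region (left, percent, bars with exact 95% intervals for members) and exonic tags per kb of that region (right), both tables together, for the members without -ps symbols (blue) and the other protein-coding genes (grey). Members have 56.5% of exonic tags in coding sequence, and other genes have 65.9% in 3′ UTRs.

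Many member tags could have come from more than 1 place. Of the 191 exonic tags, 80 matched mm9 exactly at 2 or more places, up to 37, and of the 36 tags on -ps copies 33 did. The table gives each such tag a single position. Among exonic tags on translation factor and other TOP genes, 59 of 432 had several matches, and on mitochondrial ribosomal protein genes 20 of 136 did, single-base tags aside. Unique words of 25 bases made up 72.0% of member exons, 23.7% of the exons of copies and 88.8% of those of mitochondrial ribosomal proteins, and 24 members had under 50% unique words. Tags with a single match, a subset chosen after the values were seen, gave an exonic ratio of 2.70 (1.71 to 4.44) over all members, from 24 WT and 90 KO tags. Of the 111 such tags on members without a -ps symbol, 44.1% (34.7 to 53.9) were coding, beside 73.8% (62.7 to 83.0) of the 80 with several matches. The coding share of the single-match tags was above the 24.9% of other genes, for which matches were not counted.

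**Figure D4:**
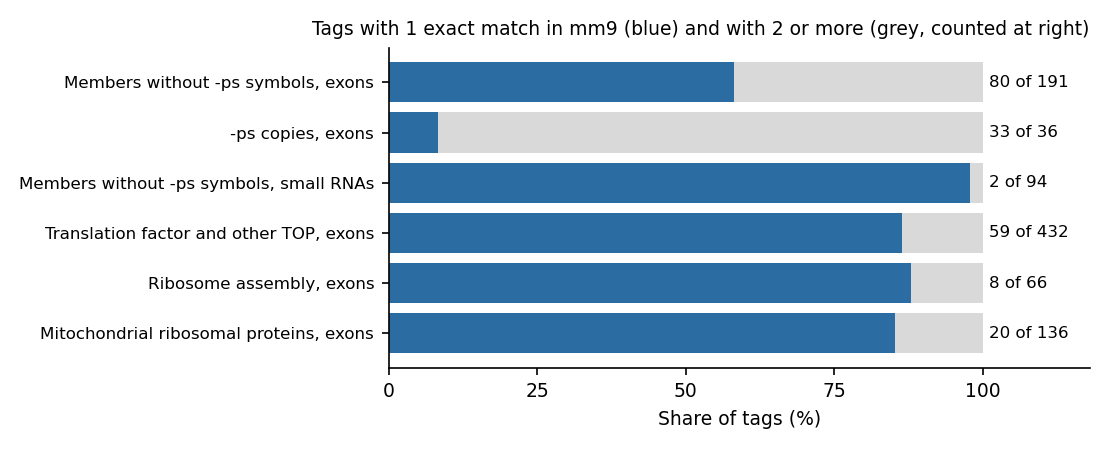
Share of tags with a single exact match in mm9 (blue) and with 2 or more (grey, counted at the right), both tables together, single-base tags left out. Copies with -ps symbols have 33 of 36 tags with several matches, and small RNAs inside members have 2 of 94.

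The copies were tagged as well. The 55 members with -ps symbols had 5 WT and 31 *Mbnl1* KO tags (ratio 4.47, 1.72 to 14.7), of which 2 and 7 lay on Rplp2-ps1, the copy with the most. Tags with a single match were 1 in WT and 2 in KO (1.44, 0.0751 to 85.1), too few for a direction. A single Rplp2-ps1 tag held 14435 reads, the most of any KO member tag, at a sequence that Rplp2 shares.

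Words of the YGCY type were common in member tags. Of the 191 exonic tags, 100 or 52.4% (45.0 to 59.6) held at least 1 YGCY word on the tag's strand, beside 31.0% of windows of the same lengths in the members' exons and 55.9% of exonic tags on other protein-coding genes. In WT 22 of 44 did so, and in *Mbnl1* KO 78 of 147. Tags with a single match held a word in 63.96% (54.3 to 72.9) and those with several matches in 36.3% (25.8 to 47.8). As the printed sites show, the Rpl28 and Rpl8 windows held 2 words each, and the second Rpl15 window held none.

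SnoRNAs supplied a large part of the gene-body tags. The members hold 59 annotated small RNAs, 58 of them snoRNAs, in 31 genes, and 29 had a tag. Together they had 24 WT and 70 *Mbnl1* KO tags (ratio 2.10, 1.31 to 3.50), beside 2.54 (2.15 to 3.00) at small RNAs inside other protein-coding genes. The members' interval included 1 without single-base tags (1.43, 0.891 to 2.39) and at 2 reads or more (1.41, 0.773 to 2.76), and by reads the ratio was 0.267. The quotient of both was 0.829 (0.499 to 1.42). All 13 tags of Rpl3 lay on Snord83b (4 WT and 9 KO), all 11 of Rpl7a on SNORD36 (0 and 9) or SNORD24 (2 and 0), all 12 of Rps12 on Snord100 (3 and 3) or SNORD101 (0 and 6), and all 6 of Rpl23a on Snord4a (2 and 4). For these 4 genes, the tags over the body say nothing of the mRNA. A SNORD18 locus in Rpl4 (chr9:64022855-64022922), Snord33 in Rpl13a and Snord68 in Rpl13 had 1 and 4 tags each. Of the small RNAs, 7 had 2 or more KO tags and none in WT. Another 4 (SNORD24, SNORD102, Snord15b and Snord38a) had 2 WT tags and none in the deeper KO table. Like counts for small RNAs outside the members were not made, so these counts show nothing particular to the members. Tags lay along the whole small RNA, with 30 of 94 midpoints in the 5′ part, 26 in the middle and 38 in the 3′ part when its length is divided into 3 equal parts. CTGA occurred in 51 of the 94 (54.3%) and in 37.8% of windows of the same lengths in these RNAs, and TGATGA in 17 (18.1%) and 13.3%, on the strand of the small RNA.

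Members without a -ps symbol had 1.27 exonic tags per kb, and gene lists with related tasks had more or fewer. The 19 genes of translation factors and other TOP mRNAs, such as Eef1a1, Eef2 and Pabpc1, had 436 exonic tags, or 7.17 per kb, with a ratio of 3.21 (2.51 to 4.14). Naca, a chaperone of nascent chains with a long muscle form, held 221 of them, and the 18 other genes had 4.00 tags per kb and a ratio of 2.72 (1.95 to 3.87). The 77 mitochondrial ribosomal protein genes had 35 WT and 103 KO exonic tags (0.755 per kb, ratio 2.12, 1.43 to 3.21) and 0 tags on small RNAs. The 39 genes of ribosome assembly had 28 and 47 (0.458 per kb, ratio 1.21, 0.742 to 2.01). The exonic ratio of members without -ps symbols was 0.751 times that of the TOP list (0.487 to 1.17), 1.14 times that of mitochondrial ribosomal proteins (0.658 to 1.95) and 1.99 times that of the assembly list (1.07 to 3.67). Of the assembly list's exonic tags 7 in WT and 2 in KO were mostly a single base, and without such tags, a setting added after the values were seen, the last quotient was 1.56 (0.793 to 3.00). Of the genes with 10 or more tags, the interval lay above 1 for 5 of 12 in the TOP list, 1 of 13 in the mitochondrial list and 1 of 9 in the assembly list, beside 27.7% of all protein-coding genes with as many tags. It lay below 1 for 1 of the 9 assembly genes, and the share of all such genes below 1 was not counted. Over the assembly bodies, 28 of 88 WT and 20 of 152 KO tags were mostly a single base.

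Tags at the same position recurred. Within the *Mbnl1* KO table, 120 of the 288 member tags (41.7%) shared start, end and strand with another, on 51 positions with up to 4 rows, beside 24.7% over the whole table. In WT 16 of 94 (17.0%) did, beside 14.2%. Distinct positions numbered 219 for the 288 KO tags of members, and 152526 for 194856 KO tags over other protein-coding bodies. In exons they numbered 137 for 178 KO tags at members and 57124 for 81223 at other protein-coding genes. Recurrence was therefore not particular to the members. Whether such rows are separate molecules of different mice cannot be told in the merged tables. Counting each 5′ end once gave an exonic ratio of 2.29 (1.62 to 3.29).

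The exonic ratio moved with the scale and with the tags counted. With single-base tags left out of both tables the members' exonic tags stayed 49 and 178, and the ratio was 1.79 (1.30 to 2.50). Among tags of at least 2 reads it was 1.33 (0.881 to 2.07), an interval that includes 1, and of the member tags 41.5% in WT and 36.8% in KO rested on a single read, beside 79.0% and 59.5% of the tables. Tags of at least 30 nt gave 7 WT and 86 KO exonic tags and a ratio of 12.2 (5.67 to 31.2), and member tags had a median length of 22.5 nt in WT and 28 nt in KO. The quotient with other protein-coding exons was 0.908 (0.658 to 1.27), 0.770 (0.509 to 1.20) and 1.604 (0.745 to 4.11) in these settings. Counted by reads, it was 3.09 and the exonic ratio 4.57.

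**Figure D5:**
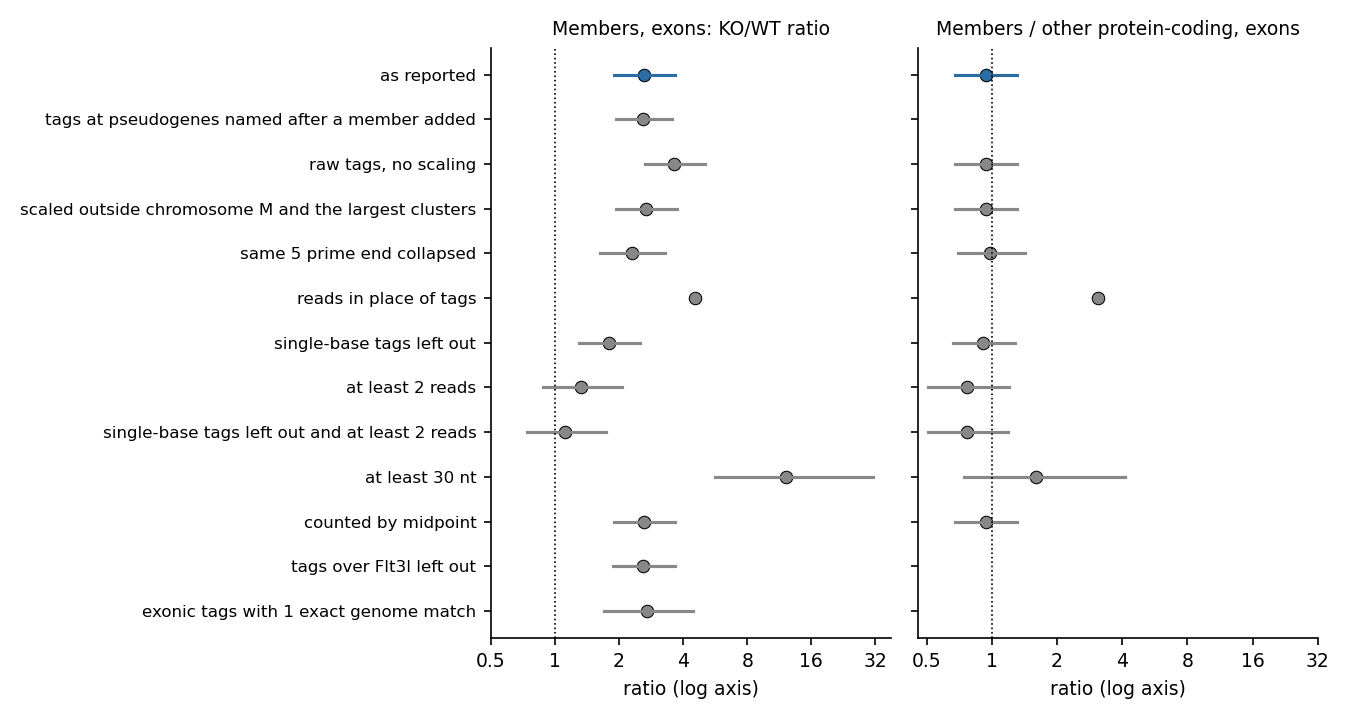
Exonic *Mbnl1* KO/WT ratio of members (left) and its quotient with the exons of other protein-coding genes (right) under each setting, on log axes with 95% counting intervals. The ratio ranges from 1.12 to 12.2, and the quotient from tags has an interval that includes 1 in each setting drawn, while counting reads, shown with no interval, gives 3.09.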

How the data were processed

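Quality-filtered reads were mapped by the authors on mm9 with BWA (version not given in the sources used here). Short sequences and likely PCR duplicates were dropped, and the mice of a genotype were merged. Each deposited row is a unique tag with a raw count of its reads, which the authors did not normalize.

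Tags were counted on the gene's strand in mm9 GENCODE vM1 with scipy 1.17.1, pandas 2.3.3 and numpy 2.4.6 under Python 3.11.15. A tag that overlapped an annotated small RNA was counted there, otherwise by its midpoint in merged exons or introns. Ratios use 343554 WT and 476543 KO tags and exact 95% intervals, and quotients of ratios exact conditional intervals. Tag sequences were searched in mm9 by their first 18 bases and compared in full. The intervals were tested on simulated independent counts for genes with at least 20 tags. That test does not cover members with fewer tags, or tags that share a position. Named genes are the 10 members with most tags, the extreme ratios among members with 20 tags, the stalk genes, Rpsa and fixed paralogue pairs, and any others were chosen after their values were seen. Members and lists were chosen with earlier results of these data known. Some members and sites are not reported here by name.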

Additional observations from a re-analysis of the deposited data

Results flagged for a closer look

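Tags outside the gene set stood out because the interval of their ratio lay above 1. The 107 annotated pseudogenes named after ribosomal protein genes, which the rule leaves out, carried 10 tags in WT and 35 in *Mbnl1* KO muscle (ratio 2.52, 1.22 to 5.71). Adding them to the members' exons gave a ratio of 2.60. The ratio was 2.62 at the members' exons and 2.80 at other protein-coding exons, both inside that interval.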

How the results depend on the processing

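No paired analysis was possible because each genotype is a single table of 3 pooled mice, and for the same reason no replicate could be left out. Over gene bodies the ratio of 2.21 was 3.06 unscaled, 1.53 without single-base tags, 1.24 at 2 reads or more, 1.06 with both, 5.79 at 30 nt or more, and 0.592 when reads were counted in place of tags, the opposite direction. Over exons it was 1.79, 1.33, 1.12 and 12.2 in the last 4 tag settings and 4.57 by reads. Over introns it was 0.747 at 2 reads or more and 0.689 with both. On small RNAs it was 1.19 with both, 3.97 at 30 nt or more and 0.267 by reads, again reversed. A single WT tag on Snord4a holds 10110 of the 13134 WT reads on members (77.0%), and without it the ratio by reads was 2.57 over gene bodies and 1.77 on small RNAs, a check added after the data were seen. Against other protein-coding exons the quotient was 3.09 by reads and 1.604 at 30 nt or more. The median ratio of 4.01, from 2 members, was 2.16 at 10 tags or more, 7.45 by reads, 2.24 at 2 reads or more and 1.88 with both. The 2 members at or above 2-fold became 7 of 11 at 10 tags or more, 1 by exonic tags, 1 at 2 reads or more and 0 with both. The cause of the other changes was not tested. No member had 50 tags, nor 20 with each 5′ end counted once or at 30 nt or more, so these settings gave no median or count. Of these pooled results, the remaining 42 values from other settings stayed within the interval of the reported value or within 1.5 times of it. For single genes, 11 values left the reported interval and 129 did not. By reads these were Rps12 (411), Rpl39 (62.8), Rpl3 (0.401), Rpl4 (0.279), Rpl3l (0.0343) and Rpl10 (0.0294). Rpl3l was also 0.187 at 2 reads or more and 0.157 without single-base tags as well, and Rpl3, Rpl22 and Rpl10 were 0 at 30 nt or more, each with 1 WT tag and no KO tag.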
